A study of Mus musculus with 6 samples.

Results

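Heat shock chaperones are the proteins that fold, refold and hold other proteins in the cytosol and in mitochondria. The set described here has 10 genes, listed by symbol and matched to Ensembl identifiers in a table of 48795 genes. They are the inducible HSP70 genes Hspa1a and Hspa1b, the constitutive HSP70 gene Hspa8, the HSP110 genes Hsph1 and Hspa4l, the J-domain gene Dnajb1, the cytosolic HSP90 genes Hsp90aa1 and Hsp90ab1, and the mitochondrial chaperonin genes Hspd1 (HSP60) and Hspe1 (HSP10). All 10 were expressed enough to be tested, among 16861 genes tested in all.

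HSP70 proteins bind unfolded stretches of a client under the control of ATP. J-domain proteins bring the client and start ATP hydrolysis, HSP110 proteins release ADP so that the cycle can start again, and HSP90 finishes the folding of kinases, steroid receptors and other clients. HSP60 and its lid HSP10 form a separate folding chamber in the mitochondrial matrix. Under stress, heat shock factor 1 (HSF1) binds heat shock elements, repeats of the unit GAA in alternating orientation, and raises transcription of many of these genes. Neurons are known for a weak induction of HSP70 by stress, and much of the inducible HSP70 of the brain is seen in glia and vessels.

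Polyadenylated RNA of the hippocampus was sequenced in 3 wild-type (WT) libraries and 3 libraries of mice with an inducible forebrain knockout (KO) of 2 histone H3 lysine 4 demethylases, Kdm1a and Kdm5c. The KO mice carried floxed Kdm1a and floxed Kdm5c with CamKIIα-CreERT2, on a C57BL/6J background. This recombinase acts after tamoxifen (TMX) in principal neurons of the forebrain, and removes exons 5 and 6 of Kdm1a and exons 11 and 12 of Kdm5c. Both groups received TMX, at an age given as 2 to 3 months, and the labels give the other group only as WT, with no word on floxed alleles or recombinase. Other cell types keep both genes, and no group lost only 1 of the enzymes. Nothing in the labels states that the libraries of a group are separate animals, so p-values measure the spread between these samples.

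Libraries held 19309576 to 19700249 gene counts. Levels are in CPM, the count of a gene relative to all counts of its library after TMM scaling. Kdm1a fell from 73.7 ± 3.95 CPM in WT to 38.6 ± 1.29 CPM in KO (mean ± SD, n = 3 each; adjusted p = 4.32e-07, edgeR quasi-likelihood test). Kdm5c stood at 79.5 ± 2.97 CPM in WT against 70.6 ± 4.67 CPM in KO and did not pass (adjusted p = 0.143, edgeR quasi-likelihood test), except after a correction for the GC content of transcripts (log2 fold change -0.27, adjusted p = 0.0166). Both are whole-gene counts and do not read the deleted exons alone. A gene is said to have risen or fallen, or is called, where its adjusted p in that test lay under 0.05 over all genes tested. By that rule 6.95% of all tested genes changed, 5.9% upward and 1.05% downward, which is 995 and 177 genes. Before adjustment, p lay under 0.05 for 3412 of the 16861 tested genes, the background for the unadjusted counts given below. The GC correction, chosen after the data were seen, turned this split to 853 upward and 1381 downward, so the number of calls after it is given for each list whose count it changed.

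Hspa1a and Hspa1b lie side by side on chromosome 17 of GRCm38, both on the minus strand and both with a single exon, Hspa1b at 34956436 to 34959238 and Hspa1a at 34969190 to 34972156. Their promoters are shown first because the pair starts from almost the same sequence. These are the 250 bases before each start in RefSeq (GRCm38.p6), at chr17:34959239-34959488 for Hspa1b and chr17:34972157-34972406 for Hspa1a, 5′ to 3′ on the minus strand. Capitals mark pairs of heat shock units, GAANNTTC or TTCNNGAA.
Hspa1b: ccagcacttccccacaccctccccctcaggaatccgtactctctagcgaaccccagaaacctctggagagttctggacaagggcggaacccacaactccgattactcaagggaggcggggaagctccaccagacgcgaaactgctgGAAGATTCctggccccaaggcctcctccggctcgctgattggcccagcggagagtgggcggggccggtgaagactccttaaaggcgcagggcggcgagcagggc
Hspa1a: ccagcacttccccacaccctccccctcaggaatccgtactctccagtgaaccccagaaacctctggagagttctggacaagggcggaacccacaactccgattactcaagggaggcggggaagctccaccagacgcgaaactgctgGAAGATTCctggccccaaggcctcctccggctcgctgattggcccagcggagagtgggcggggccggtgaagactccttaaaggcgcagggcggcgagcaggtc

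The pair differed at 3 of these 250 bases. Each held 1 pair of heat shock units that matched GAANNTTC or TTCNNGAA exactly, beginning 104 bases before the start. Imperfect units were not searched. The coding parts were 99.43% identical. Of the 50-base stretches of the Hspa1b transcript, 62.3% were also present in Hspa1a, but 0 of the 594 that lie after its coding part were. Reads from the shared stretches may have been split between the genes or discarded, since the treatment of reads with several matches is not given in the sources used here. The counts of both genes therefore carry an uncertainty that their sum carries less.

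Hspa1b transcripts were about doubled in the KO, and Hspa1b was the 1 chaperone of the 10 that rose. It measured 7.44, 9.45 and 10.2 CPM in the WT libraries and 18.2, 18.6 and 19.9 CPM in the KO libraries. The lowest KO library stood well above the highest WT library. The log2 fold change was 1.06 (SE 0.115), a 2.09-fold rise with a 95% interval of 1.76 to 2.48, and the adjusted p was 3.15e-05 in edgeR's quasi-likelihood test.

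Hspa1a had lower counts and a smaller difference. It measured 4.38, 4.81 and 5.78 CPM in WT and 6.88, 6.03 and 7.20 CPM in KO. All KO values lay above all WT values, but the gene did not pass the threshold (log2 fold change 0.43, SE 0.145, adjusted p = 0.104, edgeR quasi-likelihood test). Its 95% interval, 1.08- to 1.67-fold, ended below that of Hspa1b. Without WT replicate 3 Hspa1a passed (adjusted p = 0.0426, edgeR quasi-likelihood test). A gene annotated on the other strand, Gm20481 (34969912 to 34972136), lies within Hspa1a and had 0 counts in every library. The strand setting is not given, so reads of Hspa1a there may have been lost. Such a loss would lower its level and its share of the joint counts.

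Counts of both genes taken as 1 sum rose as well. The sum was 11.8, 14.3 and 16.0 CPM in WT and 25.0, 24.6 and 27.1 CPM in KO, without overlap. Its fold was 1.82 (95% interval 1.56 to 2.14, adjusted p = 0.000101, edgeR quasi-likelihood test). This value does not depend on how reads were split within the pair, but shared reads that were discarded would be missing from it. Hspa1b made up 62.9%, 66.3% and 63.8% of the joint counts in WT and 72.5%, 75.5% and 73.4% in KO. Joint counts were 232 to 534 per library, and the 95% Wilson intervals of these shares, which cover counting error only, lay between 56.6% and 71.6% in WT and between 68.4% and 79.1% in KO. The share, a measure chosen after the values were seen, was 9.44 percentage points higher in KO, with no overlap. An exact two-sided permutation test gave p = 0.1, the smallest that 3 against 3 libraries allow. Any full separation gives that value, so the test adds nothing to the lack of overlap.

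**Figure D1:**
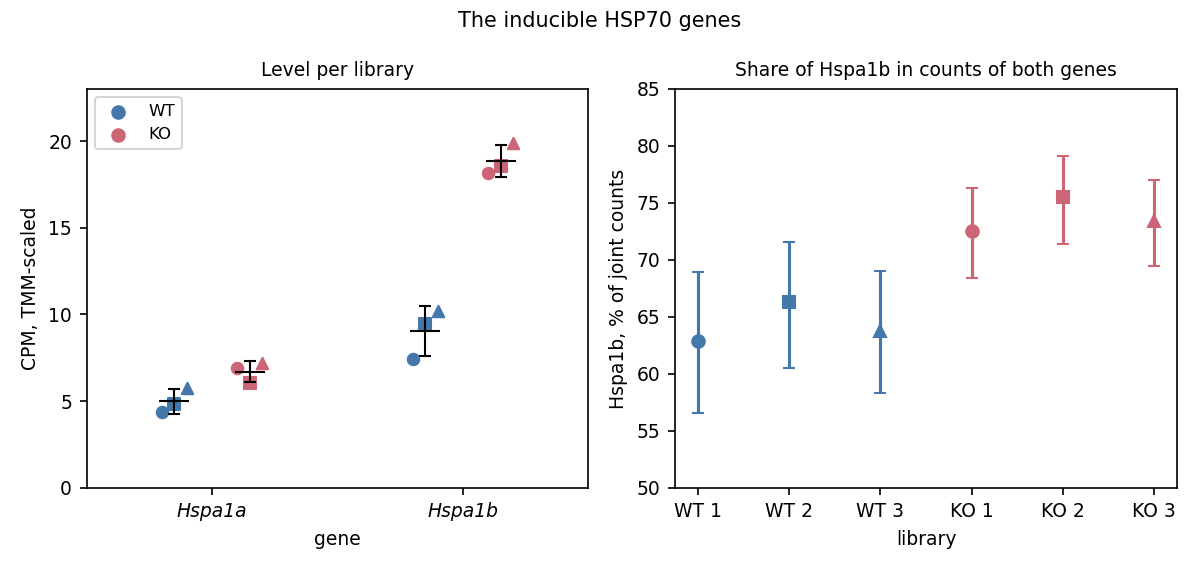
Left, TMM-scaled CPM of Hspa1a and Hspa1b in each library (circle, square and triangle are libraries 1, 2 and 3; bars are mean ± SD, n = 3). Right, Hspa1b as a percentage of the counts of both genes with 95% Wilson intervals, 62.9 to 66.3% in WT and 72.5 to 75.5% in KO, on an axis that does not start at 0.

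Genes around the pair were not called. A stretch of chromosome 17 around the pair was chosen after the values were seen, holding genes from position 34850391 to 35078804. In it 28 other genes are annotated, 13 could be tested and 0 were called in edgeR's quasi-likelihood test. An unadjusted p under 0.05 was found for 3 of the 13, against 3412 of 16861 over all tested genes. Of these neighbours DESeq2 called 0, limma-voom 1 as higher, and edgeR after GC correction 2 as lower. Their log2 fold changes ran from -0.26 to 0.79 with a median of 0.05, and the smallest adjusted p was 0.0588 (edgeR quasi-likelihood test). Hspa1l, an HSP70 gene mainly of the testis that starts just beyond Hspa1a on the other strand, measured 2.09, 2.46 and 2.03 CPM in WT and 3.06, 2.58 and 2.94 CPM in KO. Its groups did not overlap and it did not pass (log2 fold change 0.38, adjusted p = 0.262, edgeR quasi-likelihood test).

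Hspa8 encodes the constitutive HSP70 of the cytosol (HSC70), and it did not follow the inducible pair. It measured 508, 465 and 581 CPM in WT and 464, 451 and 506 CPM in KO, with overlapping groups. The log2 fold change was -0.13 (SE 0.0759), with a 95% interval from 18.3% lower to 2.49% higher (-18.3% to 2.49%). The adjusted p was 0.380 (edgeR quasi-likelihood test).

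Hsph1 was the 1 chaperone of the 10 that fell. It encodes HSP105, an HSP110 protein that acts as a nucleotide exchange factor for HSP70 and lies on chromosome 5 at 149614287 to 149636376. It measured 415, 467 and 485 CPM in WT and 362, 344 and 381 CPM in KO. The groups did not overlap, KO being lower. Its log2 fold change of -0.33 (SE 0.0660, adjusted p = 0.00607, edgeR quasi-likelihood test) is a change of -20.5% with a 95% interval of -28.0% to -12.3%. None of its 50-base stretches (0%) occurred in a transcript of another gene.

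Hspa4l, the other HSP110 gene of the set (APG-1), measured 199, 207 and 188 CPM in WT and 175, 160.1 and 176 CPM in KO, again without overlap. It just missed the threshold (log2 fold change -0.21, SE 0.0627, adjusted p = 0.0578, edgeR quasi-likelihood test). The same gene passed in DESeq2 (adjusted p = 0.0235), with no filter on low counts (0.0355) and without WT replicate 3 (0.0272).

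Dnajb1 encodes HSP40, the J-domain partner that hands clients to HSP70. It measured 63.7, 69.7 and 77.8 CPM in WT and 62.5, 63.8 and 59.7 CPM in KO, so that WT library 1 lay within the KO range. With an estimate of -0.18 on the log2 scale (SE 0.0735) it was not called (adjusted p = 0.172, edgeR quasi-likelihood test), but it was after a correction for GC content (-0.28, adjusted p = 0.0148).

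The cytosolic HSP90 genes were, with Hspa8, the most abundant of the set per length of transcript. Hsp90aa1, the stress-inducible form, measured 351, 354 and 357 CPM in WT and 314, 296 and 322 CPM in KO. The WT libraries were nearly equal and all KO libraries lay below them. With a log2 fold change of -0.19 (SE 0.0544) it missed the threshold by little (adjusted p = 0.0552, edgeR quasi-likelihood test). It passed in DESeq2 (0.0182), in limma-voom (0.0457), with no filter (0.0489) and after GC correction (0.0322).

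Hsp90ab1, the constitutive form, measured 1847, 1840.5 and 2007 CPM in WT and 1782, 1795 and 1887 CPM in KO. The groups overlapped, and a 95% interval of -11.0% to 3.42% surrounds the difference (log2 fold change -0.06, adjusted p = 0.557, edgeR quasi-likelihood test).

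Hspd1 and Hspe1 encode the chamber and the lid of the mitochondrial chaperonin. They sit head to head on chromosome 1, Hspd1 on the minus strand from 55077835 to 55088243 and Hspe1 on the plus strand from 55088132 to 55091307. The window before Hspe1 is shown for its run of heat shock units, the densest among the members whose windows could be searched. It held 3 overlapping pairs that form the patterns TTCNNGAANNTTC and GAANNTTCNNGAA. It spans chr1:55087898-55088147 on the plus strand (RefSeq, GRCm38.p6), with the units in capitals.
Hspe1: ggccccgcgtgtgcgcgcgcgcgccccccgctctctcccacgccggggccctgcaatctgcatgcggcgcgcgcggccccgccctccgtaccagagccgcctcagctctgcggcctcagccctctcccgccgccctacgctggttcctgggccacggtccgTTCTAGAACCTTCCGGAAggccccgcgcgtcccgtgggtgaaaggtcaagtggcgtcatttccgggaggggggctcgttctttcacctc

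A second RefSeq start of Hspd1 reads the same run on the other strand. Hspd1 measured 89.9, 95.3 and 96.2 CPM in WT and 79.2, 83.4 and 89.0 CPM in KO. The groups did not overlap, KO being lower, though the nearest values were under 1 CPM apart, and the gene did not pass (log2 fold change -0.16, SE 0.0627, adjusted p = 0.159, edgeR quasi-likelihood test). Hspe1 measured 23.2, 21.1 and 24.5 CPM in WT and 21.2, 23.6 and 23.03 CPM in KO. The groups overlapped, and the 95% interval of its difference, -13.4% to 12.1%, contains 0 (log2 fold change -0.02, SE 0.0867).

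A run of 3 alternating heat shock units was rare among promoters. It was searched as GAANNTTCNNGAA or TTCNNGAANNTTC, which together cover both strands, in 300-base windows from 250 bases before to 50 after each start. It occurred in 0.603% of 32851 RefSeq windows, and a pair of units (GAANNTTC or TTCNNGAA) in 15.1%. Counted by gene, it occurred in 0.662% of 27025. The table held windows of 7 of the members, and a run of 3 was found for Hsph1, Hspe1 and Hspd1. Of the 2 windows of Hspd1 only the second held it, and that run is the one of Hspe1 read on the other strand. In Hsph1 the run began 36 bases after the start used below, and a further pair lay before the start.

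The promoter of Hsph1 is shown as that of the member that fell. It covers chr5:149636337-149636586 on the minus strand (RefSeq, GRCm38.p6), with the pair of units in capitals.
Hsph1: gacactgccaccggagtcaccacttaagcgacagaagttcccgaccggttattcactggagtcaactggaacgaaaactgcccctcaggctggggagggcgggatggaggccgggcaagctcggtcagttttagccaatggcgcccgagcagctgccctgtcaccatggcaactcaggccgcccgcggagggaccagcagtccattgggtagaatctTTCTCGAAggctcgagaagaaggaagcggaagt

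The windows of Hspa4l and Dnajb1 held neither pattern in these letters. Hspa8, Hsp90aa1 and Hsp90ab1 were not in the table.

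Taken side by side, the set held 1 rise and 1 fall among 10 genes, against 5.9% and 1.05% of all tested genes. KO libraries stood above all WT libraries in 2 members, Hspa1a and Hspa1b, as they did in 14% of all tested genes. They stood below all WT libraries in 4 members, Hsph1, Hspa4l, Hsp90aa1 and Hspd1, as they did in 11.2%. Non-overlap in either direction, 25.2% of all genes, was seen in 6 members. Of the 10 log2 fold changes 2 were above 0, those of Hspa1a and Hspa1b, and 8 were below 0, as were 51.8% of all tested genes. Those 8 ran from -0.33 to -0.02 with a median of -0.17, while the median over all tested genes was -0.01. They are grouped by their sign, so this median is only a description. All 8 also stayed below 0 with RLE scaling and with scaling by library size alone. These settings moved the median over all tested genes only to -0.0089 and 0.0131. They could therefore hardly have changed the sign of any of the 8 except Hspe1. Leaving out WT replicate 3 or KO replicate 1 turned Hspe1 slightly positive (0.026 and 0.023).

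**Figure D2:**
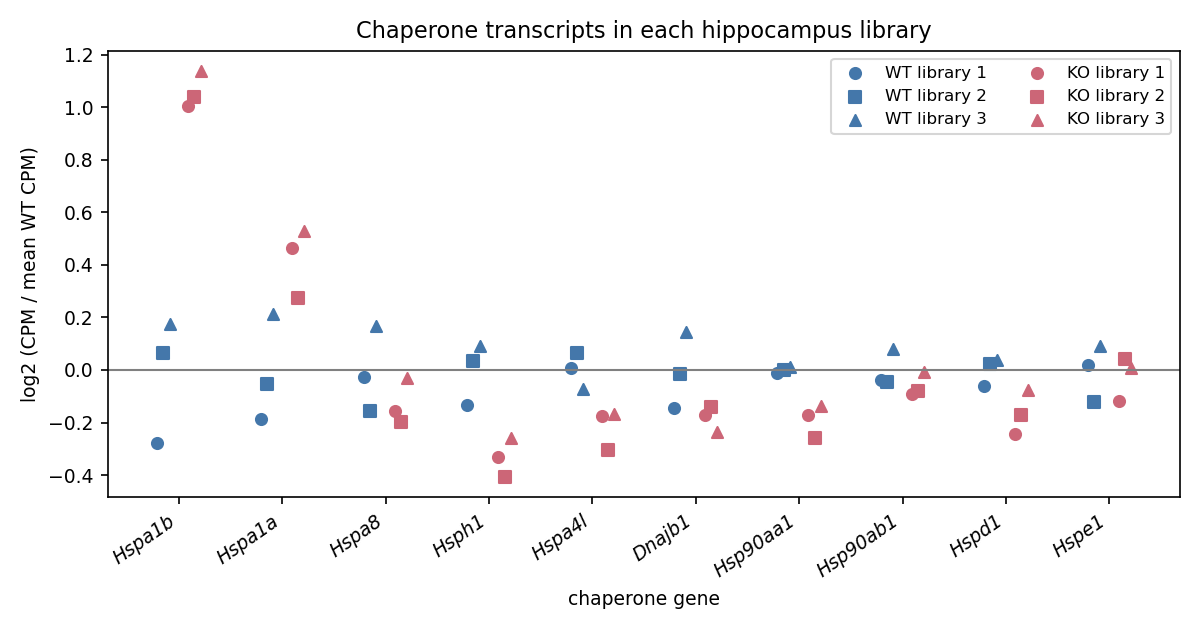
Each library's CPM relative to the mean of the WT libraries, on a log2 scale, for the 10 chaperone genes (colour is the group, marker shape the library). KO libraries of Hspa1b stand near 1 on this scale, those of Hsph1 below all WT libraries, and those of Hspe1 within the WT range.

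**Figure D3:**
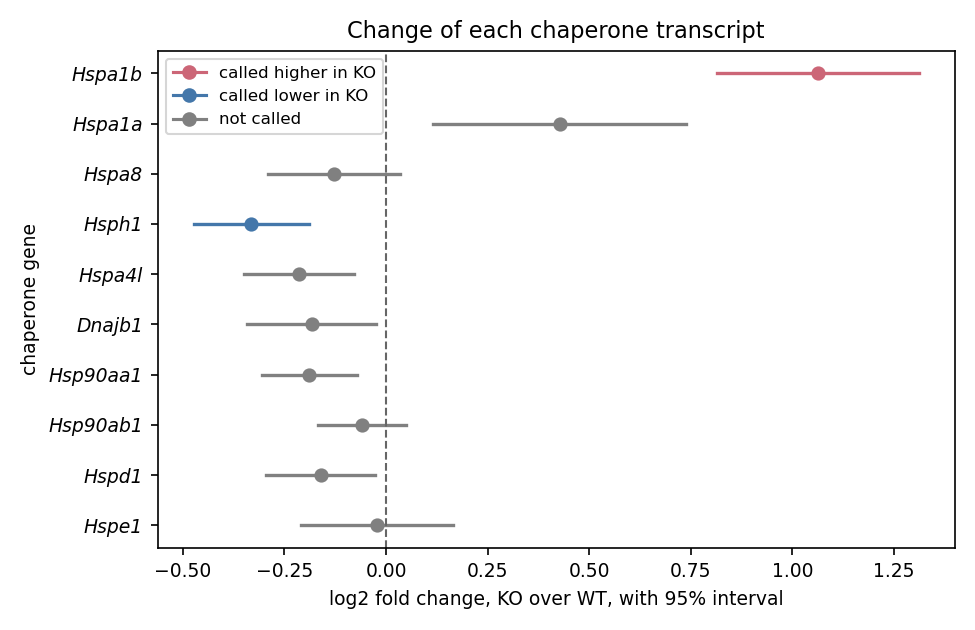
Log2 fold change of KO over WT for each chaperone gene with its 95% interval from edgeR's quasi-likelihood fit. Hspa1b (1.06) is called higher, Hsph1 (-0.33) is called lower, and the other 8 are not called.

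Per kilobase of annotated exon the set spanned more than 2 orders of magnitude. On this scale (TMM-scaled CPM per kb, mean ± SD over the WT libraries) Hsp90ab1 came first with 633 ± 31.5, followed by Hspa8 with 120.4 ± 13.7, Hsp90aa1 with 90.0 ± 0.669, Hsph1 with 62.7 ± 4.99, Hspd1 with 35.5 ± 1.30 and Dnajb1 with 22.0 ± 2.21. Hspa4l (16.8 ± 0.800) and Hspe1 (15.6 ± 1.15) overlapped in their WT libraries and cannot be ordered. The inducible genes Hspa1b (3.22 ± 0.509) and Hspa1a (1.68 ± 0.241) closed the order in WT. In KO the order was the same for the first 6 and the last 2, Hspa1b reaching 6.73 ± 0.324, still below every other gene except Hspa1a. Exons of all annotated transcripts were joined to give the length, which lowers the value of genes with long alternative exons such as Hspa4l. Stretches shared with other genes, 62.3% of those of Hspa1b and 66.3% of those of Hspa1a, are part of that length. Reads from them may have been discarded, so the place of the pair below Hspa4l and Hspe1 is uncertain.

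**Figure D4:**
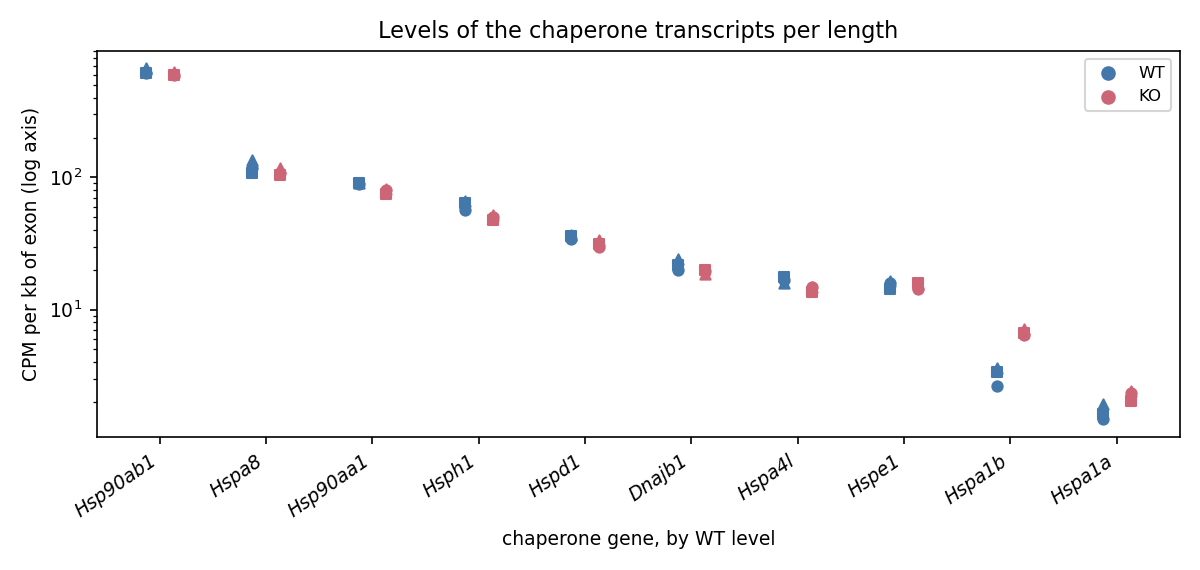
TMM-scaled CPM per kilobase of exon in each library, on a log axis, with genes ordered by their WT level. Hsp90ab1 is highest (633 in WT) and Hspa1a lowest (1.68 in WT).

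Several members share sequence with processed copies in the genome, which can take or lose reads. Of the 50-base stretches of the longest coding transcript, 74.8% recurred in another annotated gene for Hspa8, 58.5% for Hsp90aa1, 44.8% each for Hspd1 and Hspe1, and 4.49% or less for Hsp90ab1, Dnajb1 and Hspa4l. The copy with most of the shared stretches of Hspd1, Hspd1-ps3, held 237, 244 and 258 counts in WT and 233, 251 and 229 in KO, and that of Hspa8, Gm15459, held 0 in every library. Values of these genes are uncertain to that extent.

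In 9 lists of other chaperone network genes 7 of 145 tested genes were called (4.83%), against 6.95% of all tested genes. Of 10 other HSP70 genes 1 rose and 0 fell in edgeR (median log2 fold change -0.04), while Hspa12a, an atypical member of the family, fell in DESeq2 (adjusted p = 0.0283) and after GC correction (0.00983). Hspa2, an HSP70 best known from spermatocytes and also expressed in brain, measured 63.3, 58.4 and 70.2 CPM in WT and 109, 115 and 107 CPM in KO. It rose by a log2 fold change of 0.79 (SE 0.0704, adjusted p = 4.97e-06, edgeR quasi-likelihood test), with no overlap between the groups.

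Of 15 nucleotide exchange factors and cochaperones of HSP70 1 rose and 0 fell (median -0.01), and 2 fell after GC correction, Bag6 and Hspbp1 (adjusted p = 0.0288 and 0.0240). Bag3 joins HSP70 to small heat shock proteins and guides clients to autophagy. It measured 9.74, 12.0 and 13.5 CPM in WT and 19.8, 20.7 and 20.1 CPM in KO, a log2 fold change of 0.78 (SE 0.111, adjusted p = 0.000389, edgeR quasi-likelihood test). The KO libraries all lay above the WT libraries.

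Among small heat shock proteins, 6 of 9 could be tested and 2 were called higher, Hspb6 and Hspb3. All 6 had a log2 fold change above 0, with a median of 0.48. Hspb6 (HSP20) measured 3.21, 3.45 and 2.76 CPM in WT and 5.40, 5.77 and 4.62 CPM in KO (log2 fold change 0.74, adjusted p = 0.0102, edgeR quasi-likelihood test), and missed the threshold without KO replicate 2 (0.0510). Hspb3, a form known from muscle, had 8, 5 and 1 counts in WT and 24, 18 and 25 counts in KO. It entered the test through the KO libraries alone, where it was high, and was not tested under the filter of 1 CPM in 3 libraries, so its call (adjusted p = 0.00570, edgeR quasi-likelihood test) is given as a description. Without WT replicate 3 the number called higher was 4. Cryab, the most abundant, measured 98.3, 102 and 112 CPM in WT and 114, 117 and 128 CPM in KO and did not pass (adjusted p = 0.0992, edgeR quasi-likelihood test); it and the next list's Dnaja1 were named after their values were seen.

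J-domain proteins other than Dnajb1 mostly had small negative values. Of 43 tested 0 rose and 1 fell, and 35 had a log2 fold change below 0, with a median of -0.07, where 51.8% of all tested genes were below 0. Dnajb4, an HSP40 close to Dnajb1, measured 78.8, 94.7 and 82.9 CPM in WT and 73.2, 68.3 and 69.4 CPM in KO (log2 fold change -0.28, adjusted p = 0.0279, edgeR quasi-likelihood test). It missed the threshold on leaving out WT replicate 2 (0.0781) or KO replicate 1, 2 or 3 (0.0548, 0.127 and 0.143), and 2 of the list fell without WT replicate 1. Dnaja1 measured 128, 143 and 132 CPM in WT and 119.7, 114 and 121 CPM in KO (adjusted p = 0.0978, edgeR quasi-likelihood test).

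Of 22 HSP90 paralogs and cochaperones 0 rose and 1 fell (median -0.06). Chordc1, a zinc-binding cochaperone of HSP90, measured 73.4, 83.5 and 79.0 CPM in WT and 61.5, 54.9 and 64.5 CPM in KO. It fell by a log2 fold change of -0.38 (SE 0.0724, adjusted p = 0.00419, edgeR quasi-likelihood test), and its groups did not overlap. GC correction raised the number of this list that fell to 5, and that of the J-domain proteins to 2.

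The lists of chaperonin, mitochondrial and endoplasmic reticulum folding genes had 0 calls in edgeR, DESeq2 or limma-voom. In the cytosolic chaperonin with prefoldin, 0 of 16 tested passed (1 at an unadjusted p under 0.05), the smallest p-values being those of Pfdn1 (log2 fold change -0.17, adjusted p = 0.212) and Cct2 (0.08, adjusted p = 0.486, edgeR quasi-likelihood test). Among mitochondrial chaperones and proteases 0 of 17 passed (1 at an unadjusted p under 0.05), with Htra2 (-0.20, adjusted p = 0.214) and Atf5 (-0.17, adjusted p = 0.392) nearest in edgeR's quasi-likelihood test. Pfdn1, Htra2 and Atf5 passed as lower after GC correction (adjusted p = 0.0316, 0.00368 and 0.00626), and the calls in these lists were then 1 and 3, all lower. Among endoplasmic reticulum chaperones and genes of the unfolded protein response 0 of 23 passed (3 at an unadjusted p under 0.05), with P4hb (0.17, adjusted p = 0.180) and Hspa5 (-0.21, adjusted p = 0.241) nearest in edgeR's quasi-likelihood test. Without WT replicate 3 P4hb passed as higher (0.0389), and GC correction gave 1 lower call in that list.

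Of 5 tested heat shock factors and their regulators 1 rose, Hsf4, a factor best known from the lens. It measured 11.7, 9.40 and 12.2 CPM in WT and 16.0, 18.1 and 16.0 CPM in KO (log2 fold change 0.59, SE 0.112, adjusted p = 0.00455, edgeR quasi-likelihood test), and missed the threshold after GC correction (0.0524). Hsf1 measured 54.7, 62.6 and 63.0 CPM in WT and 56.0, 53.8 and 56.9 CPM in KO, and Hsf2 measured 27.7, 28.2 and 26.6 CPM in WT and 27.1, 25.9 and 24.6 CPM in KO. Both overlapped between groups and did not pass (adjusted p = 0.390 and 0.566, edgeR quasi-likelihood test), but Hsf1 was called lower after GC correction (log2 fold change -0.21, adjusted p = 0.0455). Both were named after their values were seen. Of 23 other genes listed as induced by HSF1, 1 rose (Bag3) and 2 fell (Chordc1 and Dnajb4), with a median of -0.06. Without WT replicate 3 the number that rose was 4, and after GC correction the number that fell was 5.

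**Figure D5:**
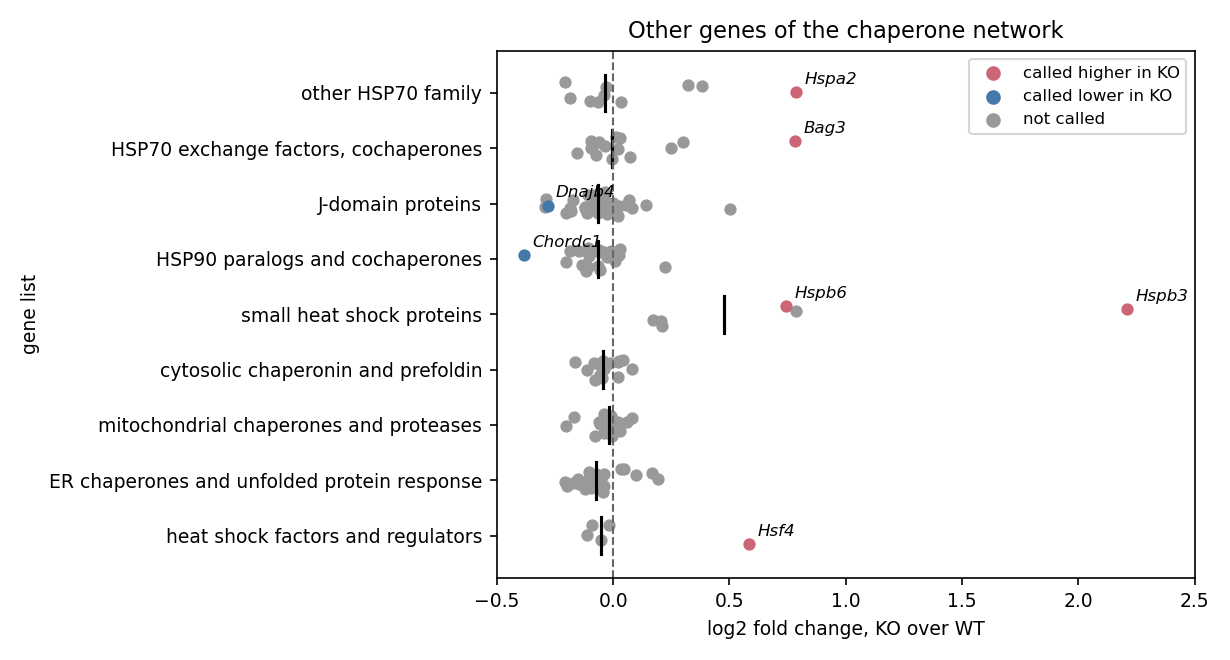
Log2 fold change of KO over WT for each tested gene of 9 lists of the chaperone network (points; the vertical offset within a list is arbitrary), with the median of each list as a black bar. Called genes are named, and Hspb3 (2.21) is the farthest right.

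Genes that respond to temperature, time of day, neuronal activity or stress hormones can move with heat shock genes in tissue, and their values are given for that reason. Of the cold-induced RNA binding protein genes Cirbp (log2 fold change 0.26, adjusted p = 0.142) and Rbm3 (-0.08, adjusted p = 0.607) 0 of 2 passed edgeR's quasi-likelihood test (1 at an unadjusted p under 0.05), and 0 passed in DESeq2 or limma-voom. Of 18 clock genes 1 rose, Dbp (0.39, adjusted p = 0.00968), and 1 fell, Bhlhe40 (-0.32, adjusted p = 0.00748, edgeR quasi-likelihood test). The call of Dbp ended after GC correction (0.355) and that of Bhlhe40 without KO replicate 1 or 3 (0.0508 and 0.0685). Of 24 immediate early genes 1 rose, Nptx2 (0.53, adjusted p = 0.00834), and 1 fell, Nr4a2 (-0.37, adjusted p = 0.0205, edgeR quasi-likelihood test), with a median of -0.20. Without WT replicate 1 Nptx2 missed the threshold (0.0500254), as did Nr4a2 (0.101), while 2 other genes of that list fell; 2 clock genes fell without the same library. Of 14 glucocorticoid response genes 0 passed (7 at an unadjusted p under 0.05, 0 in DESeq2 or limma-voom), with Tsc22d3 (-0.45, adjusted p = 0.132) and Errfi1 (-0.20, adjusted p = 0.142) nearest in edgeR's quasi-likelihood test. On leaving out WT replicate 1, 4 of them fell, Tsc22d3 among them (0.00192), and Tsc22d3 also passed with no filter (0.00553). After GC correction the numbers that fell were 5 clock genes, 4 immediate early genes and 3 glucocorticoid response genes. The part of any of these in the chaperone values was not tested.

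Some markers of cell types were called, against 6.95% of all tested genes. Among single tested genes 25.2% did not overlap between the groups, and no such share was computed for sums over lists. In bulk tissue, fewer cells of a type and less RNA per cell cannot be told apart. CamKIIα drives the recombinase in principal neurons, and 15 genes were listed as their markers, though some, such as Snap25, are also expressed by other neurons. Summed over the 15, the level was 12456 to 12873 CPM in WT and 11502 to 12228 CPM in KO. Of these genes 2 rose (Spink8 and Dkk3) and 2 fell (Neurod6 and Snap25). After GC correction 1 was called higher and 6 lower. Summed markers of astrocytes were 5469.7 to 5753 CPM in WT and 6078 to 6161 CPM in KO, with 1 of 10 called, Gfap, which rose, and 2 called higher after GC correction. Those of oligodendrocytes were 5175 to 5617 and 5756 to 6473 CPM, with 1 of 10 called, Mbp, which rose. The call of Mbp ended without KO replicate 2 (0.0564) or 3 (0.107) and with GC correction and block (0.0533), while GC correction alone gave 3 higher calls and DESeq2 gave 2. The sums of these 3 marker lists did not overlap between the groups.

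The sums of 10 microglial markers (392 to 469 CPM in WT, 460.1 to 525 CPM in KO, 0 called), 12 vascular markers (459 to 488 and 468 to 561 CPM, Pdgfrb rose, but not after GC correction, 0.103) and 11 interneuron markers (1015 to 1068 and 963 to 1025 CPM, 0 called) overlapped. Log2 fold changes were above 0 for all 10 microglial and all 12 vascular markers (medians 0.213 and 0.169). The same held for all 10 oligodendrocyte markers (median 0.214). Of the interneuron markers 3 lay above 0 and 8 below (median -0.07). The 10 markers of choroid plexus and ependyma summed to 47.0 to 67.9 CPM in WT and 83.7 to 145 CPM in KO, without overlap, and of 9 tested Kl, a gene that neurons also express, rose. The 5 erythrocyte genes summed to 28.6 to 71.9 and 57.2 to 73.0 CPM, with 0 called. Unadjusted p lay under 0.05 for 6 microglial, 2 interneuron and 2 erythrocyte genes, and DESeq2 and limma-voom called 0 in these 3 lists. After GC correction 3 interneuron markers were called lower and 1 microglial marker higher. All markers were detected (0 at a count of 0). The part of cell composition in these results was not tested.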

How the data were processed

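The values are raw gene counts that the authors deposited, 1 column per library for 3 WT and 3 KO libraries. Per the submitters' processing notes, cutadapt 1.18, HISAT2 and HTSeq 0.11.1 were used with GRCm38 (mm10). For the HISAT2 version, annotation release, strand setting and reads with several matches the entry is: not given in the sources used here. Reads of near-identical or overlapping genes may be shared or lost.

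Genes were named with GENCODE M21 (360 identifiers unmatched) and filtered with filterByExpr (minimum count 10, minimum total 15), which left 16861. TMM scaling preceded edgeR's quasi-likelihood test, whose model held group alone, and p-values were adjusted by Benjamini-Hochberg across the 16861 genes. Fold changes are log2 of KO over WT, and 95% intervals use the fit's standard error and degrees of freedom. The test was checked on simulated data. Sequences come from RefSeq (GRCm38.p6), and shared 50-base stretches were counted in GENCODE M21 transcripts. Software was R 4.3.3, edgeR 4.0.16, limma 3.58.1 and DESeq2 1.42.0.

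The members and the gene lists were chosen with earlier results of these data known. Besides the members, up to 4 called genes of each list with the smallest adjusted p are named, or, in lists with 0 calls, the 2 lowest p-values. Other settings tried were DESeq2, limma-voom, scaling by RLE or by library size alone, no filter or a filter of 1 CPM in 3 libraries, the replicate number as a block, omission of each library in turn, adjusted p thresholds of 0.01 and 0.1 and, added after the data were seen, a loess correction for GC content (span 0.3) with and without the block.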

Additional observations from a re-analysis of the deposited data

How the results depend on the processing

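Hspa1b and Hsph1 kept their direction and their call in all 15 alternative fits, with log2 fold changes of 0.89 to 1.16 and -0.39 to -0.28, and the sum of Hspa1a and Hspa1b did so too. The lowest value of Hspa1b came with the GC correction. The number of members called higher was 1 to 2 on leaving out 1 library. The number called lower was 3 in DESeq2, 2 in limma-voom, 3 with no filter, 3 with GC correction, 5 with GC correction and replicate block, 3 at a threshold of 0.1 and 1 to 2 on leaving out 1 library.

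Hsp90aa1 gave -0.19 in DESeq2, in limma-voom and with no filter and -0.18 with GC correction, with or without the block. Hspa4l gave -0.22 in DESeq2 and with no filter and -0.25 to -0.17 on leaving out 1 library. Dnajb1 gave -0.28 with GC correction and -0.27 with the block added. Hsp90ab1 gave -0.13 and Hspd1 -0.19 with GC correction and block. In each of these fits named by setting the gene was called. On leaving out 1 library Hspa1a ran from 0.34 to 0.54 and Hspe1 from -0.079 to 0.026. The GC settings were chosen after the data were seen. The cause of these moves was not tested.

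Over all genes 1172 were called. The count was 1109 with a replicate block, 2234 with GC correction (853 higher and 1381 lower, against 995 and 177), 1960 with both, 661 at a threshold of 0.01 and 724 to 1424 on leaving out 1 library, the lowest without KO replicate 3. Deviations of same-numbered libraries from their group means correlated by -0.02 to 0.00465. These values show no pairing by replicate number, but they cannot exclude one. Hspa1a rested on 289 counts over the WT libraries, and its interval is the widest of the set on the log2 scale.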
